A study of Homo sapiens with 32 samples.

Results

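The transcriptional response to tunicamycin was described in HCT116 cells that carry a knockout of IGF2BP2. The comparison took the 6 tunicamycin libraries and the 6 control libraries of the IGF2BP2 knockout, which are 12 of the 32 libraries of the study. Treatment was read from the sample titles and column names, and tunicamycin was compared with DMSO within each of 3 clones, B7, F6 and G6, with the replicate number as a further term. HCT116 is a human colorectal carcinoma line. The cells had been given a doxycycline-inducible OsTIR1 gene (genotype label Tet-OsTIR1-PURO), so every group compared here shares that background, controls included. The study also holds 8 libraries of the parental cells (4 per treatment, from 2 parental samples) and 12 of an IGF2BP3 knockout (6 per treatment, clones A3, D12 and E4). Each knockout clone is a sorted single-cell line with 2 libraries per treatment, and the labels do not say whether these came from separate cultures, so the p-values measure the spread between these libraries, which may be technical. A dose of 5 µg/mL for 4 h, against DMSO, is stated for the parental cells and the IGF2BP3 knockout. The dose and time used on the IGF2BP2 knockout are not given in the sources used here. The control libraries of B7 and F6 are labelled as DMSO controls. For those of clone G6 the title says control and the treatment characteristic says tunicamycin: they were used as controls and are counted under DMSO below, although no label of theirs names the vehicle.

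Tunicamycin inhibits DPAGT1, the enzyme that starts the dolichol-linked glycan from which proteins are N-glycosylated in the endoplasmic reticulum (ER). Unglycosylated proteins misfold there, and the sensors IRE1, PERK and ATF6 start the unfolded protein response (UPR): IRE1 splices XBP1 mRNA, ATF6 is cleaved into a transcription factor, and PERK phosphorylates eIF2 and so favours translation of ATF4. XBP1 and ATF6 act on genes of ER folding and degradation through ER stress elements in promoters, and ATF4 and its partners act through C/EBP-ATF response elements (CARE). IGF2BP2 is an RNA-binding protein of the insulin-like growth factor 2 mRNA-binding family.

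The guides that made the clones are shown because they give the site targeted and which clones share it. Letters in lower case are the guide, 5′ to 3′, and capitals are the 3 bases that follow it in the IGF2BP2 transcripts of GENCODE 29, the PAM.
Clones B7 and F6: gagctgccggaggtcgtcggCGG
Clone G6: aggcgtagccggacttcagcAGG
In GRCh38 the guide of B7 and F6 matches chromosome 3 from 185824895 to 185824914, and that of G6 matches 185824837 to 185824856. Both lie on the plus strand, opposite to the transcript, in exon 1 of IGF2BP2-202 (16 exons), within its coding sequence. The guide of B7 and F6 matches 3 of the 11 IGF2BP2 transcripts of GENCODE 29. That of G6 matches 4 of them, and in IGF2BP2-208 the match is not in coding sequence. The edited alleles were not analysed here. IGF2BP2 transcript (ENSG00000073792_16) was still counted in all 12 libraries, at 81.2 to 92.7 CPM in DMSO, against 176 ± 17.9 CPM (SD, n = 4) in parental DMSO libraries. CPM, the unit of all levels here, are a gene's counts relative to the library total, scaled by TMM.

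Promoter stretches of genes described below are shown so that the elements named above can be seen beside the values. They come from RefSeq promoters on GRCh38.p14, lie before the start of transcription that RefSeq gives, and read 5′ to 3′ on the gene's strand, with the match in capitals. The first group holds the ER stress element, CCAAT and CCACG with any 9 bases between them, on either strand, which stood in 22 of 27305 promoters (0.0806%) within 250 bases before the start and in 5 of 15 promoters of the ER chaperone list.
HSPA5, chr9:125241381-125241419, minus strand: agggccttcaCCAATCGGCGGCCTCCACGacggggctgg
HSP90B1, chr12:103930206-103930349, plus strand: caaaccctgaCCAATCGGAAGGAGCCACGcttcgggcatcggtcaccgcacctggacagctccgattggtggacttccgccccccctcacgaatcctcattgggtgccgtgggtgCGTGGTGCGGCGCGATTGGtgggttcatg
XBP1, chr22:28800593-28800631, minus strand: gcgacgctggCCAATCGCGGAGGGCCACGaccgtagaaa
FICD, chr12:108515113-108515151, plus strand: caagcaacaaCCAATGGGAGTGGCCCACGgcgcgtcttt
The second group holds the ER stress element II, ATTGG and CCACG with any 1 base between them, on either strand, found in 14 of the 27305 promoters (0.0513%).
HERPUD1, chr16:56932015-56932045, plus strand: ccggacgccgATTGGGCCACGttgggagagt
SDF2L1, chr22:21642104-21642134, plus strand: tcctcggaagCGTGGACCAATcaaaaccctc
The third group holds a CARE, TGATGNAA on either strand, found in 870 of them (3.19%).
CHAC1, chr15:40953252-40953279, plus strand: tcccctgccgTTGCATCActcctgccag
ASNS, chr7:97872459-97872486, minus strand: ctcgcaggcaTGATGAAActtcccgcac
ATF3, chr1:212565206-212565233, plus strand: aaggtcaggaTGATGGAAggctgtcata
Among the 12 genes with the largest increase, 2 promoters held the ER stress element, 1 the element II and 3 a CARE. Among the promoters of genes tested here, 15 of 10349 (0.145%) held the ER stress element, 11 (0.106%) the element II and 133 (1.29%) a CARE. These are matches of letters and not measured binding sites. By the gene starts of GENCODE 29, the stretches of HSP90B1, CHAC1 and ASNS lie inside the gene, and that of XBP1 reaches into it at its edge.

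The 12 libraries held 16651438 to 22426669 counts each. Epithelial markers (EPCAM, CDH1, 3 keratins, 2 claudins) summed to 3095 to 5737 CPM. The 11 markers of blood, endothelial, stromal, liver and neural cells summed to 5.73 to 13.45 CPM. Most of that sum came from COL1A1, a stromal collagen gene and the only marker of these to pass the filter on low counts (0.16 log2 units, not called). RBFOX3 was the highest of the rest, at up to 0.881 CPM. CD3E was at 0 in every library, and PTPRC, COL1A2, ALB and GFAP were each under 0.16 CPM. The first principal component (37.6% of the variance) separated the treatments. In bulk libraries, fewer cells that express a gene and less of its RNA per cell cannot be told apart.

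Tunicamycin changed the transcriptome of the IGF2BP2 knockout on a broad scale, with the strongest increases in UPR genes and fewer strong decreases. Of 14145 genes tested, 7062 (49.9%) passed an adjusted p of 0.05 in edgeR's quasi-likelihood F test, adjusted by the Benjamini-Hochberg method, 3373 (23.8%) higher and 3689 (26.1%) lower. Without the libraries numbered 2 the count was 4246. Most of these changes were small: the median absolute log2 fold change of the called genes was 0.31, and 348 rose and 180 fell by more than 1 log2 unit, which is a doubling or its inverse. A test for changes above 1 log2 unit called 222 genes higher (1.57%) and 41 lower (0.29%). Of the called genes, 5970 moved the same way in all 6 pairs of same-numbered libraries of a clone. Of all 14145 genes tested, called or not, 6397 did so. In 2350 called genes (16.6% of genes tested) the 6 tunicamycin libraries did not overlap the 6 DMSO libraries.

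**Figure D1:**
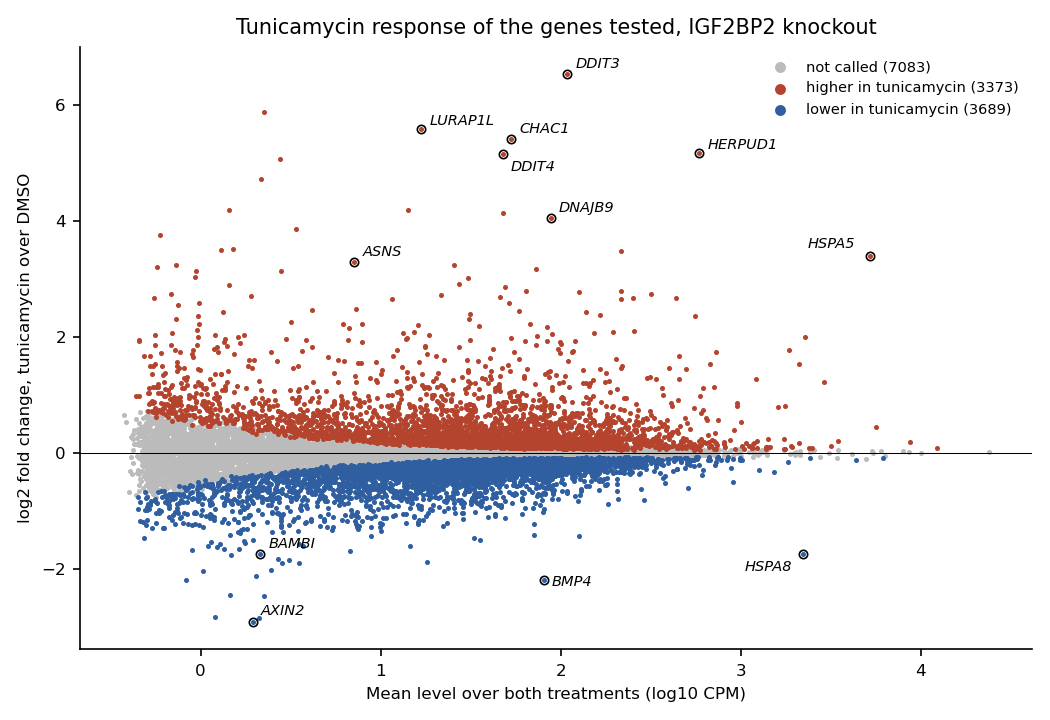
Log2 fold change of tunicamycin over DMSO (y axis) against the mean level over both treatments in log10 CPM (x axis), 1 point per gene tested in the IGF2BP2 knockout. Red and blue points are the 3373 higher and 3689 lower genes, grey points were not called, and circled genes are described in the text: the largest changes were increases, up to 6.54 for DDIT3.

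Increases were ranked by fold change among called genes with a mean count of at least 100 and the same direction in all 6 pairs. The 12 largest were led by DDIT3 (ENSG00000175197_12, chromosome 12 from 57516588 to 57521737 in GRCh38), which encodes CHOP, a transcription factor of the PERK branch. Its level was 1.97, 2.24 and 2.91 CPM (lowest, median and highest of 6 libraries) in DMSO and 176, 214 and 254 CPM in tunicamycin. It rose by 6.54 log2 units (SE 0.0706, adjusted p 5.05e-22, edgeR), and no tunicamycin library came near a DMSO library. LURAP1L followed with 5.59 (SE 0.124), at 0.183 to 1.31 CPM in DMSO and 22.4 to 52.4 CPM in tunicamycin. CHAC1, which breaks down glutathione, rose by 5.42 (SE 0.0741), from 2.16 to 2.89 CPM up to 87.0 to 120 CPM. DDIT4 (5.16) and SESN2 (4.14), both inhibitors of mTORC1 signalling, the transcriptional regulator TSC22D3 (4.20) and TRIB3 (3.50), a pseudokinase induced by CHOP and ATF4, completed the part of this ranking outside the ER itself together with ASNS (3.30), the asparagine synthetase.

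The other 4 of the 12 act in or at the ER. HERPUD1, a membrane protein of ER-associated degradation, stood at 27.1, 30.3 and 39.3 CPM (lowest, median, highest) in DMSO and at 1096, 1129 and 1190 CPM in tunicamycin. It rose by 5.18 log2 units (adjusted p 1.35e-22, edgeR), the smallest adjusted p of all genes tested. DNAJB9, a co-chaperone that represses IRE1, rose by 4.06 and FICD, which AMPylates BiP, by 3.25 (SE 0.0695). HSPA5 (ENSG00000044574_8, chromosome 9 from 125234853 to 125241330), the ER chaperone BiP, stood at 773, 897 and 1046 CPM in DMSO and at 9008, 9458 and 9964 CPM in tunicamycin, and rose by 3.40 log2 units (SE 0.0438, adjusted p 5.09e-21, edgeR). In all 12 the 6 tunicamycin libraries stood above the 6 DMSO libraries, while 16.6% of genes tested were called without overlap in either direction. These 12 were picked for large changes with the same direction in all 6 pairs, so the separation is no added support.

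**Figure D2:**
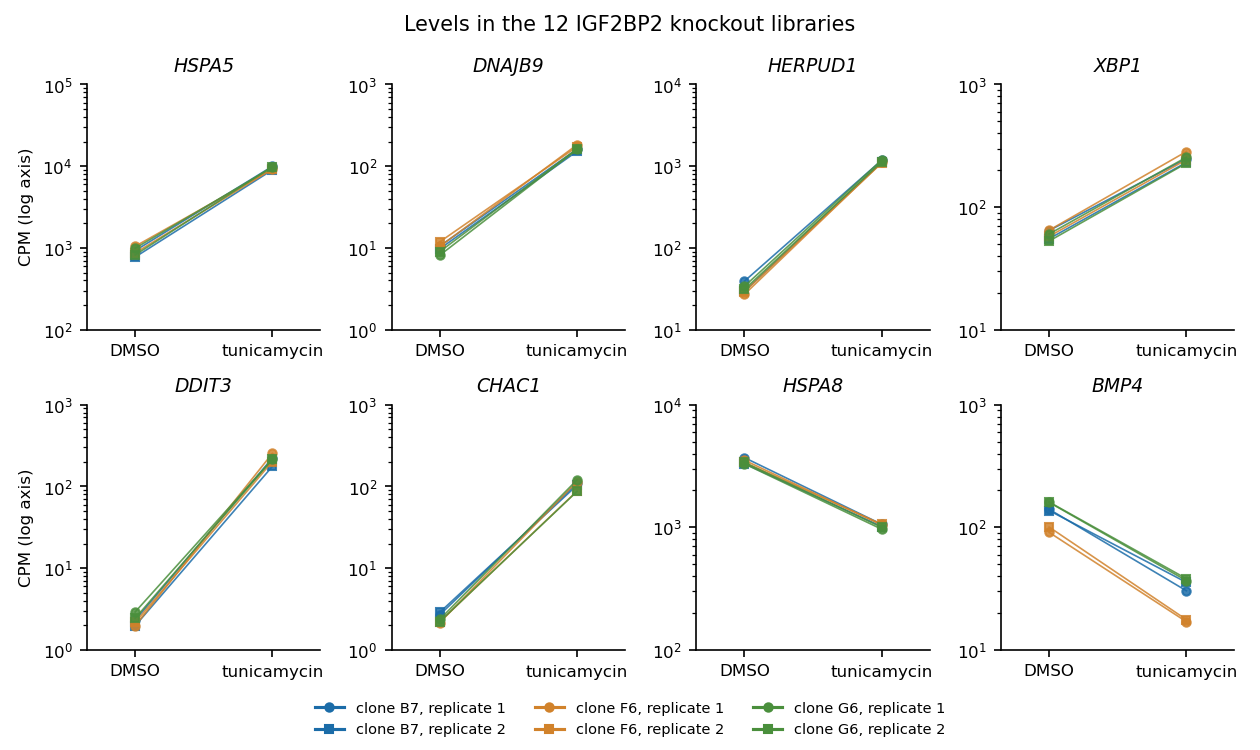
CPM on a log axis in DMSO and in tunicamycin for 8 genes, with a line joining the same-numbered libraries of a clone (colour: clone, marker: replicate number). HSPA5, DNAJB9, HERPUD1, XBP1, DDIT3 and CHAC1 rose and HSPA8 and BMP4 fell in all 6 pairs, and for BMP4 clone F6 was the lowest in both treatments.

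ER chaperones and folding factors rose almost as a whole: of 15 tested, 14 were higher and 0 lower, against 23.8% and 26.1% of all genes, and the median log2 fold change was 1.79 against -0.01 over all genes tested. Beside HSPA5 and DNAJB9 they included DNAJC3 (2.68), a co-chaperone that also inhibits PERK, SDF2L1 (2.43), HYOU1 (2.37), the nucleotide exchange factor of BiP, and HSP90B1 (1.79), the ER form of HSP90. HSP90B1 rose from 684, 806 and 982 CPM in DMSO to 2530, 2739 and 3273 CPM in tunicamycin. CALR, a lectin chaperone of glycoproteins, rose by 1.28 (SE 0.0269). CNPY2 was not called (-0.01, adjusted p 0.978). Summed over the list, these genes took 0.368% of a library's counts in DMSO and 1.76% in tunicamycin (medians of 6), and FKBP2, the 16th member, was below the filter on low counts. Genes of disulfide formation followed with 9 of 11 higher and 1 lower (median 0.81), led by ERO1B (1.86), an oxidase, and PDIA4 (1.54), a disulfide isomerase. PRDX4, an ER peroxiredoxin, fell by 0.16 log2 units.

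Of 21 genes of ER-associated degradation, 14 rose (66.7%) and 2 fell (9.52%), beside 23.8% and 26.1% of all genes (median 0.46). The retrotranslocation ligase SYVN1 stood at 29.1 to 34.2 CPM in DMSO and 204 to 234 CPM in tunicamycin, a log2 fold change of 2.78 (SE 0.0323). Its partner SEL1L rose by 2.75 and EDEM1, a lectin-like mannosidase that marks misfolded glycoproteins, by 2.45. DERL3 was counted at 0 in all 12 libraries.

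Of 9 sensors and membrane transducers tested, 7 were higher (77.8%) and 0 lower, with a median of 0.52. The shares of all genes were 23.8% higher and 26.1% lower. EIF2AK3, the gene of PERK, stood at 11.1, 11.3 and 13.4 CPM in DMSO and 81.7, 86.6 and 93.3 CPM in tunicamycin, and rose by 2.87 (SE 0.0527, adjusted p 7.29e-19, edgeR). XBP1, which counts here without regard to splicing, rose by 2.07 (SE 0.0304), from 52.8 to 64.8 CPM up to 228 to 284 CPM. CREB3L2, an ER-anchored transcription factor, rose by 1.58. ERN1, the gene of IRE1, and ATF6 rose by 0.75 and 0.52. MBTPS1, the protease that first cleaves ATF6, was not called (0.06, adjusted p 0.111). Among 6 tested transcripts reported elsewhere as substrates of regulated IRE1-dependent decay, 4 fell (66.7%, beside 26.1% of all genes) and 1 rose. SCARA3 fell by 0.61 and PMP22 by 0.55, BLOC1S1 was not called (-0.21), and the member that rose was TNFRSF10B (1.31), a death receptor that CHOP induces.

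The PERK branch had the highest median of the lists described, 2.30 over 14 tested genes, of which 13 rose and 0 fell. After DDIT3, CHAC1, DDIT4, SESN2 and TRIB3 came ATF3 with 3.17, a repressor and activator of stress genes, at 10.0 to 18.2 CPM in DMSO and 110 to 156 CPM in tunicamycin. PPP1R15A, the eIF2 phosphatase subunit that reverses PERK signalling, rose by 2.38 and CEBPB by 2.22. ATF4 stood at 350, 378 and 456 CPM in DMSO and 801, 824 and 901 CPM in tunicamycin, a log2 fold change of 1.12 (SE 0.0370). ATF5 was not called (0.00, adjusted p 0.986), with overlapping groups. Of 13 genes of the list of eIF2 and its kinases, 4 were higher (30.8%) and 3 lower (23.1%), near the 23.8% and 26.1% of all genes.

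Of 22 tested genes of amino acid synthesis and transport, 20 were higher and 0 lower (median 0.93). Over all genes, 23.8% were higher and 26.1% lower. ASNS was counted at 0.754 to 1.80 CPM in DMSO and 8.63 to 16.1 CPM in tunicamycin. The neutral amino acid transporter SLC38A2 rose from 760, 905 and 1070 CPM to 3094, 3608 and 4215 CPM, a log2 fold change of 2.00 (SE 0.0282). SLC7A11, the cystine transporter, rose by 2.11 and PSAT1, of serine synthesis, by 1.29, while ALDH18A1, of proline synthesis, stood at 165 to 207 CPM in DMSO and 164 to 199 CPM in tunicamycin. Of 20 cytosolic aminoacyl-tRNA synthetases, 14 rose (70%) and 2 fell (10%), with a median of 0.38. WARS1 (1.24) and AARS1 (1.01) led, and RARS1 fell by 0.13. Of 15 mitochondrial synthetases, 1 rose (6.67%) and 6 fell (40%), with a median of -0.12.

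**Figure D3:**
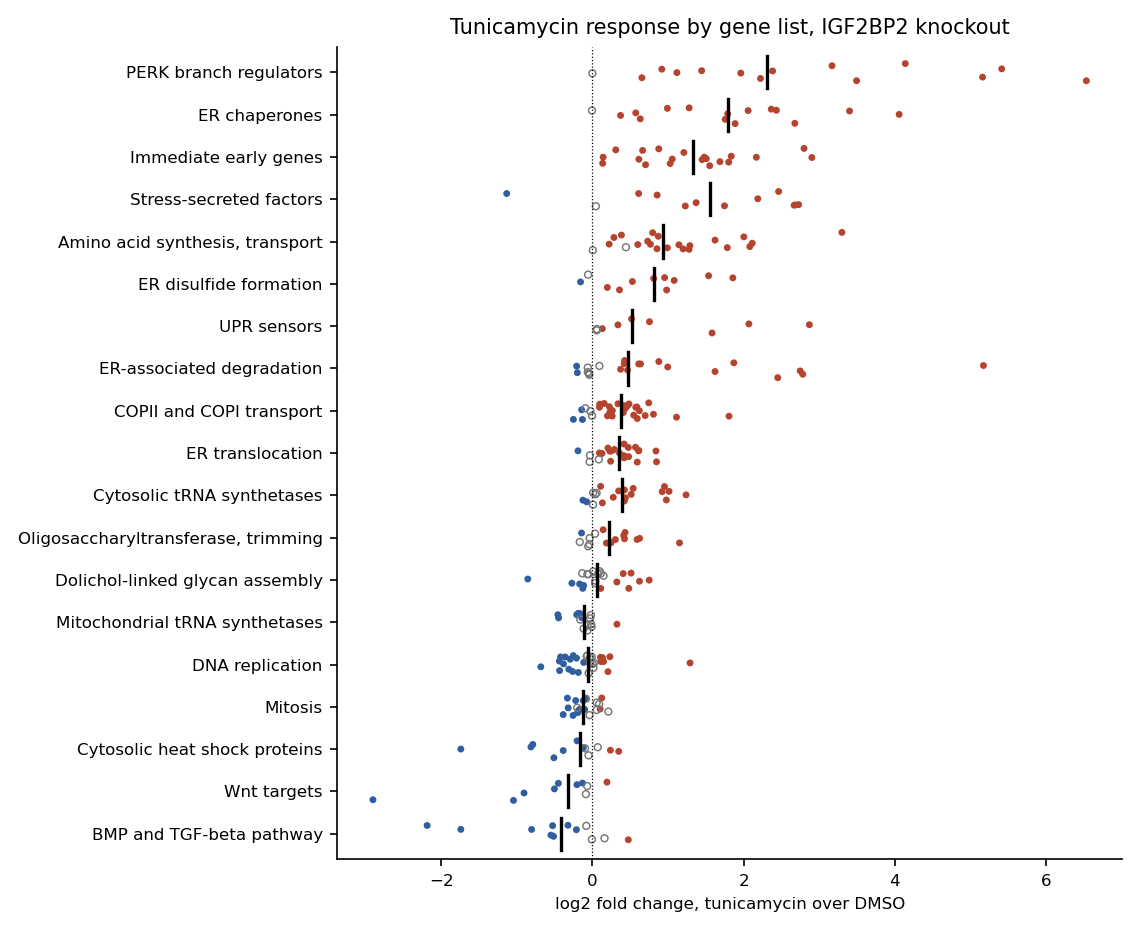
Log2 fold change of tunicamycin over DMSO (x axis) for the tested members of 19 gene lists, 1 point per gene. Filled red and blue points are called higher and lower, open points were not called, bars are list medians (2.30 for PERK branch regulators, -0.42 for the BMP and TGF-beta pathway), and the dotted line is the median of all genes tested.

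Genes of dolichol-linked glycan assembly, which tunicamycin blocks, were called at shares not far from those of all genes. Of 22, 7 rose (31.8%) and 5 fell (22.7%), beside 23.8% and 26.1% of all genes (median 0.06). DPAGT1, the target itself, stood at 26.4, 29.6 and 32.9 CPM in DMSO and 29.6, 36.9 and 42.1 CPM in tunicamycin, and rose by 0.32 (SE 0.0486, adjusted p 1.65e-05, edgeR). The 2 groups overlapped. ALG12, a mannosyltransferase whose promoter holds an ER stress element, rose by 0.75. DOLK, the dolichol kinase, fell by 0.86 log2 units, from a median of 18.9 CPM to 10.5 CPM without overlap. Of 16 genes of the oligosaccharyltransferase and of glycan trimming, 10 rose (62.5%) and 1 fell (6.25%), with MAGT1 (1.15) the largest. GFPT1, the first enzyme of the hexosamine pathway that makes UDP-GlcNAc, rose by 1.38, and 4 of the 5 genes of that pathway rose. MFSD2A, a transporter through which tunicamycin can enter cells, rose by 0.80.

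Entry into the ER and transport out of it rose by small steps in most genes. Over all genes tested, 23.8% were higher and 26.1% lower. Of 23 genes of translocation and signal peptide cleavage, 19 rose and 1 fell (median 0.36), and SEC63, a translocon subunit, rose by 0.84. Of 32 genes of COPII and COPI transport, 26 rose and 3 fell (median 0.37). SEC24D, a cargo adaptor of COPII, rose from 40.1, 43.0 and 45.1 CPM to 135, 151 and 158 CPM, a log2 fold change of 1.81 (SE 0.0382). KDELR3, a retrieval receptor, fell by 0.25. Among 16 autophagy genes 10 rose (62.5%) and 2 fell (12.5%), with a median of 0.12. MAP1LC3B, the gene of the autophagosome protein LC3B, rose by 2.09, and TFEB, a regulator of lysosomal genes, fell by 0.83.

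Of 20 death and survival genes, 7 were higher (35%) and 6 lower (30%), beside 23.8% and 26.1% of all genes, with a median of -0.02. The proapoptotic BH3-only genes BBC3 and PMAIP1 rose by 1.49 and 1.48, and TNFRSF10B stood at 157, 167 and 229 CPM in DMSO and 375, 426 and 557 CPM in tunicamycin. MCL1, an antiapoptotic member, rose by 0.47, and BAK1, a pore-forming effector, fell by 0.44. Of 19 p53 targets tested, 5 rose and 9 fell: BTG2 fell by 0.93, and CDKN1A rose by 0.38 (SE 0.0414) with overlapping groups.

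Secreted stress factors had a median of 1.56, with 10 of 12 higher (83.3%) and 1 lower (8.33%), against 23.8% and 26.1% of all genes. ADM2 (2.73), STC2 (2.68) and GDF15 (2.67) were the largest. STC2, stanniocalcin 2, stood at 96.5, 122 and 131 CPM in DMSO and at 655, 754 and 887 CPM in tunicamycin. VEGFA rose by 1.37 and CXCL8, at 0.688 to 2.41 CPM in DMSO, by 2.46 (SE 0.165). ADM, adrenomedullin, went the other way and fell by 1.14 log2 units.

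All 20 immediate early and AP-1 genes were higher, against 23.8% of all genes, with a median of 1.33. EGR1 rose from 43.9, 49.8 and 74.3 CPM to 309, 380 and 474 CPM, a log2 fold change of 2.80 (SE 0.0489). EGR2 rose by 2.90, JUN by 1.80 and FOS by 1.55, and ERRFI1, the feedback inhibitor of the EGF receptor, rose by 1.54 from a level of 770 to 1608 CPM.

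The decreases were smaller. Among genes with a mean count of at least 100, BMP4 (ENSG00000125378_16, chromosome 14 from 53949736 to 53958761), a ligand of the bone morphogenetic protein pathway, fell most, by 2.19 log2 units (SE 0.0542, adjusted p 7.13e-17, edgeR). It stood at 91.0, 139 and 161 CPM in DMSO and at 17.0, 33.0 and 38.1 CPM in tunicamycin, without overlap. LRFN1, a synaptic adhesion protein, fell by 1.88, the potassium channel genes KCNJ12 and KCNC4 by 1.68 and 1.34, and the transcriptional repressors ZNF503 and CBX2 by 1.61 and 1.46. TGOLN2, a protein of the trans-Golgi network, fell by 1.43, GPR157 by 1.42 and PHETA1, an endosomal adaptor, by 1.31. HAS3 and TNS4 fell by 1.49 and 1.41, in every pair as the ranking required. Clones differed so much in level that the groups of both genes overlapped: HAS3 ran from 16.3 to 126 CPM in DMSO.

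HSPA8 (ENSG00000109971_14, chromosome 11 from 123057489 to 123063230), the constitutive cytosolic HSP70, was the abundant transcript among the 12 largest decreases. It stood at 3296, 3380 and 3702 CPM in DMSO and at 965, 1031 and 1060 CPM in tunicamycin, and fell by 1.74 log2 units (SE 0.0278, adjusted p 8.15e-20, edgeR). The 3 clones gave -1.76, -1.72 and -1.76. Of 12 cytosolic heat shock genes tested, 7 fell and 2 rose (median -0.16). DNAJA1, an HSP40, fell by 0.81 and BAG3, a co-chaperone, by 0.79, and DNAJB1 rose by 0.24. HSPA1A and HSPA1B, which are near-identical copies, were counted at 0 or under 0.25 CPM in every library and were not tested.

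Developmental signalling genes fell more often than they rose. Of 12 tested genes of the BMP and TGF-beta pathway, 8 fell (66.7%) and 1 rose (8.33%), beside 26.1% and 23.8% of all genes (median -0.42). BAMBI, a decoy receptor, fell by 1.74, from 2.22 to 4.50 CPM down to 0.687 to 1.51 CPM, and SMAD6, an inhibitory SMAD, by 0.81. Of 10 Wnt targets tested, 7 fell (70%) and 1 rose (10%), with a median of -0.33. AXIN2, a feedback inhibitor of Wnt signalling, had the lowest log2 fold change of all called genes, -2.91 (SE 0.188, adjusted p 1.66e-10, edgeR), at 1.27, 3.58 and 5.69 CPM in DMSO and 0.0981, 0.546 and 0.680 CPM in tunicamycin. SOX4 fell by 1.05 and CCND1, cyclin D1, by 0.50. Without replicate 2, SMAD6 lost its call at -0.64.

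Cell cycle genes fell more often than they rose, by small amounts. Over all genes, 26.1% were lower and 23.8% higher. Of 30 genes of DNA replication, 13 fell (43.3%) and 7 rose (23.3%, the share of all genes), with a median of -0.06. Of 21 mitosis genes, 12 fell (57.1%) and 2 rose (9.52%), with a median of -0.12. CCNE1, cyclin E1, fell by 0.68 and AURKA, a mitotic kinase, by 0.39. CDC6, a replication licensing factor, rose instead: it stood at 167, 176 and 188 CPM in DMSO and 422, 428 and 441 CPM in tunicamycin, a log2 fold change of 1.29 (SE 0.0292). Of 23 cholesterol genes 10 rose (43.5%) and 5 fell (21.7%), with a median of 0.10 and STARD4, a sterol carrier, at 1.93. Host transcripts of snoRNAs were higher in 11 of 14 (78.6%) and lower in 1 (7.14%), led by SNHG8 (0.89). Of 80 tested ribosomal protein genes, 14 were higher (17.5%) and 3 lower (3.75%), both below the shares of all genes, with a median of 0.03. Their medians were 0.06 in clone B7, 0.10 in F6 and -0.05 in G6.

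The targeted gene responded too. IGF2BP2 rose from 81.2, 85.9 and 92.7 CPM in DMSO to 101, 105 and 116 CPM in tunicamycin, by 0.31 log2 units (SE 0.0301, adjusted p 5.55e-08, edgeR), and the groups did not overlap. Its paralogue IGF2BP3 was not called (0.02, adjusted p 0.644), and IGF2BP1 stayed below 0.53 CPM in every library. Of 9 tested transcripts reported elsewhere as IGF2BP clients, 2 rose (22.2%) and 4 fell (44.4%), against 23.8% and 26.1% of all genes. They lay between -0.50 for CCND1 and 0.16 for LAMB2, a laminin chain. Of 17 writers, erasers and readers of m6A, the RNA mark that IGF2BP proteins can bind, 2 rose and 5 fell (11.8% and 29.4%, against 23.8% and 26.1% of all genes). METTL3, the catalytic writer, fell by 0.40.

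To ask whether the clones responded alike, the response was fitted in each. Clone B7 had 4253 genes called (30.1%), F6 4065 (28.7%) and G6 4529 (32%), by edgeR with 2 libraries against 2. Of the 14145 genes tested, 2773 were called in all 3 clones, each with the same sign in all of them. The responses correlated across genes with r 0.81 between B7 and F6, 0.76 between B7 and G6 and 0.78 between F6 and G6. These values are a description over 14145 genes, which are not independent, from libraries fitted together. Without the replicate block, the counts were 2395, 2340 and 2471. APBA3, an adaptor protein, was called in opposite directions in B7 (-0.33, adjusted p 0.0328, edgeR) and G6 (0.57, adjusted p 0.00106, edgeR), and the pseudogene RPS27P8 likewise (1.37 in B7, -0.82 in G6); both were picked out after their values were seen.

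The test of a difference among the 3 clones called 5 genes (0.0353% of those tested). GDF15, a secreted stress hormone, rose in every clone, by 3.0 (SE 0.0590) in B7, 2.34 (SE 0.0548) in F6 and 2.72 (SE 0.0561) in G6 (adjusted p of the difference 0.0089, edgeR). In B7 it started lowest, at 35.9 and 35.9 CPM in DMSO, and in F6 highest, at 84.8 and 84.1 CPM, while the tunicamycin levels were 290 and 285 CPM in B7 and 443 and 413 CPM in F6. In G6 it stood at 63.8 and 56.7 CPM in DMSO and at 394 and 393 CPM in tunicamycin.

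The other 4 genes had an adjusted p of 0.0127 each for a difference among clones (edgeR). CDKN2B, a cyclin-dependent kinase inhibitor, rose most in G6 (1.72) and least in F6 (0.51), with 0.90 in B7. MKX, a homeobox gene, rose by 0.97 in F6, where it stood at 22.6 and 19.6 CPM in DMSO, against 0.28 in B7 and 0.23 in G6, where it stood at 73.5 to 81.2 CPM. DUSP1, an early-induced phosphatase of MAP kinases, rose by 1.02 in B7, 2.23 in F6 and 1.63 in G6. PDE4B, a cyclic AMP phosphodiesterase, fell by 0.31, 0.87 and 0.50 log2 units in B7, F6 and G6. Between pairs of clones, B7 and F6, which share a guide, differed in 5 genes, F6 and G6 in 2 and B7 and G6 in 0 (edgeR). At an unadjusted p under 0.05 the order was another one, with 506 genes (3.58%) for B7 and F6, 843 (5.96%) for F6 and G6 and 779 (5.51%) for B7 and G6. An unadjusted p under 0.05 for a difference among clones was found in 710 of all 14145 genes (5.02%). It was found in 8 of 14 PERK branch genes, 7 of 20 immediate early genes and 18 of 80 ribosomal protein genes. Other lists varied: 4 of 12 secreted stress factors, 6 of 22 amino acid genes and 0 of 21 genes of ER-associated degradation. Without the replicate block the test called 0 genes, and the adjusted p of each of the 5 was at least 0.989.

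**Figure D4:**
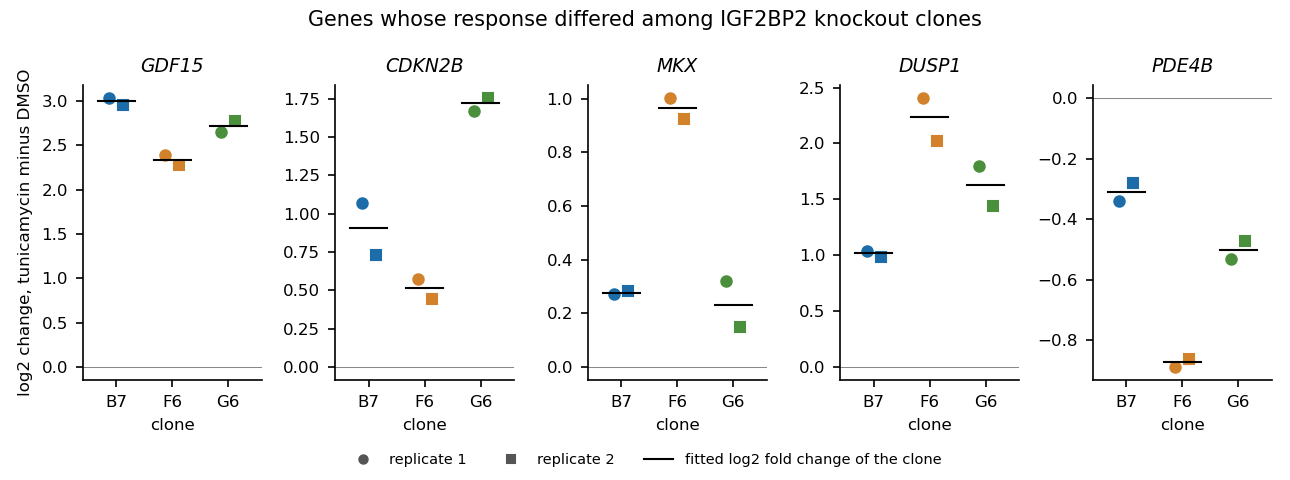
Log2 change, tunicamycin minus DMSO, of each same-numbered pair of libraries (points) in clones B7, F6 and G6 for the 5 genes whose response differed among clones, with the fitted log2 fold change of the clone as a bar. The y axes differ between panels and the grey line is 0: the direction was the same in all 6 pairs of each gene.

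The response was also compared between the replicate numbers, since these libraries deviated together. By edgeR 0 genes (0%) differed in response between replicate numbers, with 518 at an unadjusted p under 0.05 and 0 by DESeq2. Without a filter on low counts edgeR called 2, HSPA5 (0.19) and LINC00342 (-0.63).

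To ask whether the response differed from that of cells with intact IGF2BP2, each genotype's own DMSO libraries served as its baseline. The difference from the parental response was tested in 15178 genes and 0 were called (0%) by edgeR, with 537 genes (3.54%) at an unadjusted p under 0.05 and 0 called by DESeq2. The genes of smallest p, none of them called in this fit, were CDKN1A, ADM2 and ELF3. Without the filter on low counts edgeR called 10 genes, CDKN1A among them (-0.25, adjusted p 0.0283). CDKN1A rose by 0.38 in the IGF2BP2 knockout and by 0.62 in parental cells, a difference of -0.24 (95% interval -0.36 to -0.12, adjusted p 0.999, edgeR). ADM2 rose by 2.73 and 3.14, a difference of -0.41 (-0.64 to -0.19), and ELF3, an epithelial transcription factor, had responses of 0.38 and -0.13, a difference of 0.51 (0.23 to 0.78). For HSPA5 the difference was 0.05 (-0.10 to 0.19), for HERPUD1 -0.10 (-0.24 to 0.05) and for DDIT3 -0.27 (-0.67 to 0.13). The intervals rest on the spread between libraries and not on that between clones or parental samples. They do not show that the responses are alike. Dose and time are stated for the parental cells and the IGF2BP3 knockout only. In this comparison and the next, a difference in exposure therefore cannot be told apart from a difference of genotype. Over all genes the median interval reached 0.188 log2 units to either side.

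Against the IGF2BP3 knockout, 0 of 14916 genes were called (0%) by edgeR, with 584 (3.92%) at an unadjusted p under 0.05. DESeq2 called 2, HSPA5 and IGF2BP2, both at an adjusted p of 0.0156. HSPA5 rose by 3.40 in the IGF2BP2 knockout and 3.10 in the IGF2BP3 knockout, a difference of 0.30 (95% interval 0.18 to 0.41, adjusted p 0.179, edgeR), and without clone F6 the difference was 0.36 with an adjusted p of 0.023 (edgeR). IGF2BP2 itself rose by 0.31 and 0.07, a difference of 0.23 (0.13 to 0.32, adjusted p 0.186, edgeR). FAM107B rose by 0.98 and 1.28, a difference of -0.31 (-0.43 to -0.19, adjusted p 0.179, edgeR). Of the 15 ER chaperones, 9 had an unadjusted p under 0.05, and the median difference of the list was 0.17 against -0.01 over all genes. The same list differed from the parental response by a median of 0.02, with 0 such members.

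**Figure D5:**
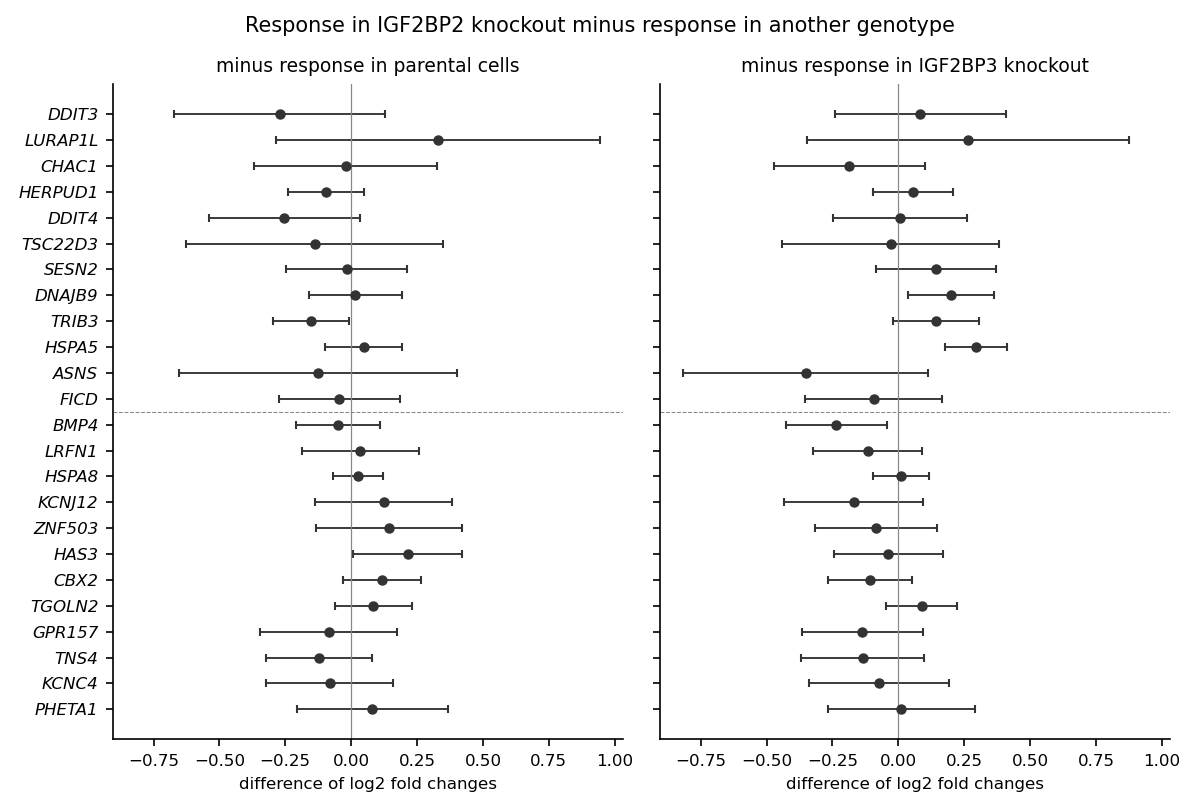
Difference of log2 fold changes, response in the IGF2BP2 knockout minus response in parental cells (left) and minus response in the IGF2BP3 knockout (right), for the 12 largest increases and, below the dashed line, the 12 largest decreases. Points are fitted differences and bars 95% intervals without adjustment: 22 of 24 intervals include 0 on the left and 21 of 24 on the right, and edgeR called none of these 24 genes in the fit with all clones, while HSPA5 was called on the right by DESeq2 and without clone F6.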

How the data were processed

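Per the labels' protocols, poly(A) RNA was selected, and strand-specific (directional) libraries were read from both ends. The authors deposited 1 table of raw counts per gene for all 32 libraries. The submitters' processing notes name STAR 2.7.5c and hg38. The counting tool, the annotation and whether counting used the strand are not given in the sources used here, so overlapping and antisense genes are uncertain. Of 60660 identifiers, 42022 were matched to a symbol.

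Counts of the 12 libraries (DMSO 20094154 to 22426669, tunicamycin 16651438 to 20783220) were fitted with edgeR 4.0.16 in R 4.3.3 (TMM, filterByExpr, quasi-likelihood F test, Benjamini-Hochberg adjustment, threshold 0.05) with clone, replicate number and treatment as terms. The SE is the one the F statistic implies. CPM were TMM-scaled over all 32 libraries. Clone responses were nested in the same fit, and differences between genotypes were interaction terms in fits with the other genotype's libraries. Deviations from clone and treatment means correlated between same-numbered libraries in 15 of 15 comparisons over 0.1 (r 0.159 to 0.5, median 0.408), so the numbers were taken to pair the libraries. Replicate libraries differed by more than sampling noise (chi-square per degree of freedom 4.59 to 11.6). Between 21259 and 22425 genes were detected in libraries numbered 1 and between 23423 and 24253 in those numbered 2.

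Named genes are IGF2BP family members, members of 43 gene lists, the 12 largest increases and decreases among called genes with a mean count of at least 100 and the same direction in 6 of 6 pairs, and the genes of smallest p for each difference of responses. Members and lists were chosen with earlier results of these data known, and lists are described by counts and medians without a test. Alternatives were no replicate block, DESeq2 1.42.0, its size factors in edgeR, no low-count filter, clones, parental samples or replicate numbers left out, counts summed per clone, and a test against a log2 fold change of 1. Fits were tested on simulated counts. Promoters come from RefSeq (GRCh38.p14) and gene positions from GENCODE 29 (the counts may rest on another annotation). Some list members are not reported by name here.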

Additional observations from a re-analysis of the deposited data

Results flagged for a closer look

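Among the genes named, MAGT1 in the tunicamycin library of clone B7, replicate 1, stood at 222.9 CPM, apart from the other 5 tunicamycin libraries at 184.2 to 198.2 CPM. A gap of this size is expected by chance in about 1 of 20 groups, and 1 was found over the groups examined.

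The response differed among the 3 clones by edgeR's interaction test in 5 genes: GDF15 (adjusted p 0.0089) and CDKN2B, DUSP1, MKX and PDE4B (adjusted p 0.0127 each). The range of the adjusted p under 7 alternatives was 2.668e-11 to 0.9894 for GDF15, 1.567e-08 to 0.9926 for CDKN2B, 1.713e-09 to 1 for DUSP1, 4.768e-09 to 0.9997 for MKX and 3.599e-08 to 1 for PDE4B, and each gene was called in 4 of the 7.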

How the results depend on the processing

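The tunicamycin response called 7062 genes, and 4246 to 6657 when clones or replicate numbers were left out, the lowest without replicate 2. A required log2 fold change above 1 left 263. Of 106 named genes that were called, 68 passed that test. Over the other 10 alternatives, 1143 of 1150 combinations of a named gene and an alternative kept their side of the threshold and, where called, their direction. SMAD6 lost its call without replicate 2 (-0.64), ELF3 without the replicate block (0.37) and without clone F6 (0.25). MBTPS1 (0.11) and EPCAM (0.08) gained one without replicate 1, and RPS27P8 (0.78) without clone G6. APBA3, which was not called over all clones, ran from -0.25 without clone G6 to 0.19 without clone B7. Without the replicate block the per-clone counts were 2395 for B7, 2340 for F6 and 2471 for G6, and the clone difference called 0 genes.

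The clone difference called 12 genes with DESeq2, 204 without the filter on low counts, and 0 (without F6) to 10 (without G6) when a clone was left out. It called 1 gene, CDKN2B, without B7. Leaving out a clone lowers the number of libraries, and the cause of the other changes was not tested. Without the filter, 2 genes differed in response between replicate numbers, 10 from the parental response and 16 from the response of the IGF2BP3 knockout. DESeq2 called 2 genes against the IGF2BP3 knockout. Leaving out lines gave 0 to 1 against parental cells (RGS3, without G6) and 0 to 1 against the IGF2BP3 knockout (HSPA5, without F6).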

Other observations

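A pair of genes of the secreted stress factor list fell below the filter on low counts and were not tested. INHBE, a subunit of activin E, was counted at 0 in all 6 DMSO libraries and at 0.49 to 0.94 CPM in the tunicamycin libraries. FGF21, a stress hormone, stood at 0 to 0.046 CPM in DMSO and 0.15 to 0.59 CPM in tunicamycin.

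Some other lists stood above the shares of all genes tested, 23.8% higher and 26.1% lower, in at least 1 direction. Of 9 fatty acid synthesis genes, 6 rose (66.7%) and 1 fell (11.1%). Of 10 mitochondrial chaperones and proteases, 4 rose and 4 fell (40% each). In the groups that follow, the shares were close to those of all genes or below them. Of 21 glycolysis genes tested, 2 rose and 6 fell: LDHA, lactate dehydrogenase A, fell by 0.30 and ARRDC4, an arrestin that restrains glucose uptake, rose by 2.00 (SE 0.0789). Of 25 ribosome biogenesis genes, 3 rose and 7 fell, with RRS1, a ribosome assembly factor, the lowest at -0.58. Of 10 interferon-stimulated genes tested, 3 rose and 2 fell, and IFIT1 fell by 1.20 from 1.06 to 3.43 CPM in DMSO to 0.203 to 1.47 CPM in tunicamycin, with overlapping groups. Of 13 mitochondrially encoded mRNAs, 0 rose and 2 fell.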
